A study of Homo sapiens with 20 samples.

Results

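The 9 genes described here encode the writers of N6-methyladenosine (m6A), the methyl mark on internal adenosines of mRNA: *METTL3*, *METTL14*, *WTAP*, *VIRMA*, *ZC3H13*, *CBLL1*, *RBM15*, *RBM15B* and *METTL16*. They were chosen by name, as the rows whose Ensembl identifier maps to these symbols. The rule uses no measured value, but earlier results of these data were known when the genes were chosen. Each was found once among the 60624 identifiers listed for every islet-like organoid (hILO) library and the 60623 listed for every pancreatic progenitor (PP) library. All 9 passed the filter on low values, a mean of at least 1 TPM or CPM.

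RNA-seq was performed on 20 libraries from MEL1, a human embryonic stem cell line; per the study, all carry the INS GFP/W reporter, a GFP gene placed in the insulin locus. WT cells and cells with a knockout of the m6A eraser *ALKBH5* (A5-KO, made with CRISPR-Cpf1 guides to the first exon) were differentiated into hILOs, with 2 libraries per genotype, or into PPs, which were collected after 0, 1, 2 or 3 h in 1 µg/ml actinomycin D, a blocker of transcription, with 2 libraries per genotype and time. The labels do not say which edited colony the A5-KO libraries came from, so the genotype and the line that carries it cannot be told apart. They also do not say whether the libraries of a group came from separate cultures. The study calls the replicates of the time course biological ones, and all p-values below measure only the spread between these samples. The PP values are read counts scaled to a fixed library total (CPM), and they gave back 30516384 to 35206513 reads per library. The hILO values are scaled by transcript length and total (TPM) and keep no depth.

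A complex in the nucleus writes most m6A on mRNA. METTL3 transfers the methyl group, METTL14 holds the RNA beside it, and WTAP, VIRMA, ZC3H13, CBLL1 and the RNA-binding proteins RBM15 and RBM15B place this pair on its targets, while METTL16 works alone on a few structured RNAs such as U6 and *MAT2A*. ALKBH5 and FTO remove the mark, and the comparison of A5-KO with WT asks whether the writer mRNAs change once the eraser ALKBH5 is lost.

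*METTL3*, *METTL14* and *METTL16* code for proteins of the methyltransferase fold, and the short motif of its catalytic pocket differs between them. The windows below are 30 bases of the coding strand of GRCh38, with the codons of the motif in capitals. They are shown because this motif sets the catalytic METTL3 and METTL16 apart from METTL14, which is not catalytic itself: METTL3 has DPPW at codons 395 to 398 of 580 (chr14:21500596-21500625, minus strand, exon 6), METTL14 has EPPL at codons 192 to 195 of 456 (chr4:118697243-118697272, plus strand, exon 7), and METTL16 has NPPF at codons 184 to 187 of 562 (chr17:2467776-2467805, minus strand, exon 5).
METTL3: gtgatggctGACCCACCCTGGgatattcac
METTL14: attcttctgGAACCCCCTTTAgaagaatat
METTL16: tgcatgtgcAACCCTCCCTTTtttgccaat
The other 6 members are not m6A methyltransferases and are shown by their values only.

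The knocked-out gene was examined first. *ALKBH5* was at 78.8 and 81.9 TPM in WT hILOs against 4.16 and 3.42 TPM in A5-KO hILOs. In PPs at 0 h the WT libraries had 149 and 172 CPM and the A5-KO libraries 19.1 and 18.8 CPM. The genotypes did not overlap at either stage. *ALKBH5* fell by 4.09 in hILOs (limma adjusted p = 0.00213) and by 3.01 in PPs at 0 h (limma adjusted p = 1.46e-06), on the log2(value + 1) scale. The other eraser, *FTO*, had 34.4 and 29.6 CPM in the WT libraries and 34.5 and 29.1 CPM in the A5-KO libraries of PPs at 0 h, and it passed the test at neither stage.

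Cell type markers were checked over whole lists. The 9 pancreatic progenitor markers summed to 1023 to 1303 CPM in WT PPs and 957 to 1054 CPM in A5-KO PPs at 0 h, and 1 of the 9 (*PTF1A*) was under 1 CPM. The 8 islet endocrine markers summed to 34651 to 36966 TPM in WT hILOs and 26629 to 27843 TPM in A5-KO hILOs. Of the 8, 4 were called lower (*INS*, *GCG*, *SST* and *PPY*) and 1 (*NEUROD1*) higher. The sum of the 7 hepatocyte markers was higher in A5-KO at both stages, with 19737 to 20090 against 32131 to 32418 TPM in hILOs and 1090 to 1139 against 1896 to 1922 CPM in PPs at 0 h. Of the 7, 2 were called higher and 1 (*FGB*) lower in hILOs, and 5 were called higher in PPs. The 6 cycling cell markers summed to 222 to 228 TPM in WT hILOs and 142 to 143 TPM in A5-KO hILOs, with 4 called lower. In PPs at 0 h they went the other way, at 1076 to 1114 CPM in WT and 1137 to 1216 CPM in A5-KO, with 0 called. The 5 mesenchyme markers summed to 5.04 to 9.53 TPM in WT against 20.5 to 25.4 TPM in A5-KO hILOs, and to 106 to 115 against 149 to 161 CPM in PPs at 0 h. Of the 5, 2 were under 1 TPM in WT hILOs and 3 in A5-KO hILOs, and 1 was under 1 CPM in PPs at 0 h. *COL1A2* was called higher in A5-KO hILOs, and *COL1A1* and *COL3A1* were called higher in A5-KO PPs at 0 h. For the 3 intestine markers the sums were 399 to 401 against 507 to 514 TPM and 319 to 340 against 427 to 432 CPM, in the same order, and the enterochromaffin markers had 733 to 758 against 537 to 576 TPM and 17.3 to 19.8 against 14.6 to 16.8 CPM. Of the 3 enterochromaffin markers, 2 were under 1 CPM in PPs at 0 h in both genotypes, and *SLC18A1* and *TPH1* were called lower in A5-KO hILOs. No intestine marker was called at either stage. Over all genes tested, 6.79% were called in hILOs and 2.70% in PPs at 0 h, in either direction. The progenitor factor *ONECUT1* was called lower in A5-KO PPs at 0 h, at 18.7 and 17.1 CPM in WT against 7.23 and 5.33 CPM (limma adjusted p = 0.00189). In bulk samples, fewer cells of a type and less RNA per cell cannot be told apart, and the part of these lists in the results below was not tested.

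In PPs, 3 WT libraries stood apart from the other WT libraries in the genes named below. They were the second replicate at 2 h and both replicates at 3 h. A set of 5 genes was nearly absent from all 8 A5-KO PP libraries (under 0.3 CPM) and present at 3 CPM or more in both WT libraries at 0 h: *MYH14*, *PCDHGB5*, *TNFSF9*, *ZNF248* and *ZNF793*, chosen after the data were seen and without use of the WT libraries at 2 or 3 h. Their median level was 85.9% and 84.0% of the WT 0 h mean in the WT libraries at 1 h. It was 57.8% and 22.7% in replicates 1 and 2 at 2 h, and 9.79% and 7.87% in the libraries labelled WT at 3 h. *MYH14*, a myosin heavy chain, was at 8.5 and 13.4 CPM at 0 h, 11.9 and 9.34 CPM at 1 h, 8.31 and 2.79 CPM at 2 h, and 1.07 and 0.442 CPM at 3 h. *ALKBH5* itself came to 133 and 125 CPM after 1 h in the WT libraries, to 107 and 83.4 CPM after 2 h, and to 48.3 and 33.7 CPM after 3 h, against 7.43 to 19.1 CPM in A5-KO. The reverse was seen for *URB1-AS1*, one of 2 genes under 0.3 CPM in WT at 0 and 1 h and at 2 CPM or more in A5-KO at 0 h: after 3 h it had 1.07 and 0.379 CPM in the libraries labelled WT against 2.39 and 1.17 CPM in A5-KO. In the second WT replicate at 2 h it had 0.149 CPM, within the 0.031 to 0.229 CPM of the WT libraries at 0 and 1 h. For this gene that library did not stand apart. The other gene, ENSG00000255860, had 0.416 CPM there, above the 0.143 to 0.258 CPM of WT at 0 and 1 h. After 3 h ENSG00000255860 had 0.895 and 1.3 CPM in the libraries labelled WT against 6.99 and 5.53 CPM in A5-KO. These 3 libraries were also taken after 2 or 3 h in actinomycin D, and the 5 genes were too low in A5-KO to follow their loss there. The cause was not tested, and for the 5 genes a loss in actinomycin D cannot be told apart from other sources. Results that rest on these 3 libraries are given below with and without them where a fit without them can be made, which is not so for the comparison of the genotypes at 3 h and for 3 h against 0 or 2 h in WT.

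**Figure D1:**
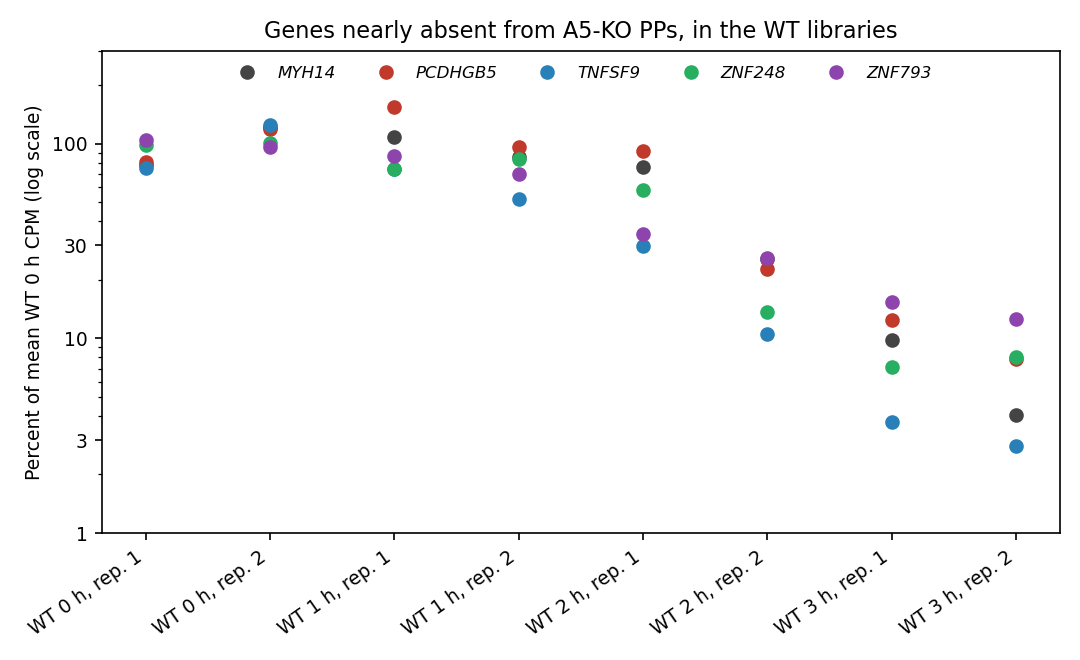
CPM of 5 genes that are nearly absent from A5-KO PPs, in each of the 8 WT PP libraries, as a percent of the mean of the 2 WT libraries at 0 h (log scale). The points of the second replicate at 2 h lie at 10.5% to 25.8%, and those of the libraries labelled WT at 3 h at 2.80% to 15.3%.

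Levels of different members can be compared only per length, as TPM in hILOs and as CPM per kb of the canonical transcript in PPs. The order in PPs thus rests on the length of the canonical transcript, which for *METTL3* is 1980 bases, against 5861 bases in all its exons. Other lengths were not tried. *WTAP* was the most abundant member at both stages, at 56.7 and 66.0 TPM in WT hILOs and 37.5 and 32.4 CPM per kb in WT PPs at 0 h. *METTL3* came next, at 37.7 and 35.6 TPM and at 26.7 and 24.7 CPM per kb, followed by *RBM15B* at 31.4 and 30 TPM and at 24.3 and 20.7 CPM per kb. These 3 levels did not overlap at either stage, and the order of the 3 was the same in A5-KO. *VIRMA* followed in both, at 16.6 and 18.9 TPM and at 12.0 and 11.0 CPM per kb. *METTL14*, the partner that pairs with METTL3, was lower than *METTL3* at both stages, at 11.1 and 11.1 TPM and at 5.57 and 4.73 CPM per kb, the last place in PPs. The lowest level in WT hILOs was that of *RBM15*, at 4.94 and 5.23 TPM. In between, *CBLL1* overlapped *METTL14*, *METTL16* and *ZC3H13* in WT hILOs, *VIRMA*, *RBM15*, *ZC3H13* and *METTL16* each overlapped the next in WT PPs, and *CBLL1* overlapped *METTL14* there.

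In hILOs, none of the 9 writer mRNAs was called between the genotypes. The call needed both a limma p below 0.05 after Benjamini-Hochberg adjustment and more than a 1.5-fold change, which 6.79% of the 17300 genes tested met in either direction. At an unadjusted limma p below 0.05 there were 2 members, *ZC3H13* and *RBM15B*. Of the 17300 genes, 2106 had such a p with a higher level in A5-KO and 3238 with a lower one. Exact permutation of 2 libraries against 2 has a smallest two-sided p of 0.333, so limma, which pools the spread over all genes, was the test throughout. *METTL3* (ENSG00000165819, chr14:21498133-21511342) was at 37.7 and 35.6 TPM in WT against 37.8 and 35 TPM in A5-KO. The genotypes overlapped. The difference, A5-KO minus WT on the log2(TPM + 1) scale, was -0.01 with a 95% interval of -0.21 to 0.19, which excludes a 1.5-fold change in either direction.

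The same was seen for its partner. *METTL14* (ENSG00000145388, chr4:118685392-118715433) was at 11.1 and 11.1 TPM in WT against 10.6 and 11.3 TPM in A5-KO, with a log2 difference of -0.02 (95% interval -0.28 to 0.25). *WTAP* (ENSG00000146457, chr6:159725585-159756319), which anchors the pair in nuclear speckles, was at 56.7 and 66.0 TPM in WT against 59.8 and 61.1 TPM in A5-KO, a log2 difference of -0.02 (95% interval -0.25 to 0.22). Both genes overlapped between the genotypes. The smallest log2 differences of the 9 were those of these 3 genes, the catalytic pair and its anchor.

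A further 5 members lay lower in both A5-KO hILO libraries than in both WT libraries without passing the test. *VIRMA* (ENSG00000164944, chr8:94487689-94553529), the largest scaffold of the complex, was at 16.6 and 18.9 TPM in WT against 11.2 and 15.3 TPM in A5-KO, a log2 difference of -0.41 (95% interval -0.88 to 0.07, limma adjusted p = 0.21). *ZC3H13* (ENSG00000123200, chr13:45954465-46052759), which keeps the complex in the nucleus, was at 8.15 and 10.0 TPM in WT against 6.64 and 6.21 TPM in A5-KO. Its log2 difference was -0.44 (95% interval -0.83 to -0.04, limma adjusted p = 0.134). They had the 2 largest differences of the 9, and each stayed under 1.5-fold.

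The RNA-binding pair and METTL16 showed smaller differences. *RBM15B* (ENSG00000259956, chr3:51391285-51397908) was at 31.4 and 30 TPM in WT against 26.1 and 25.7 TPM in A5-KO, a log2 difference of -0.24 (95% interval -0.42 to -0.06, limma adjusted p = 0.0976). *RBM15* (ENSG00000162775, chr1:110338506-110346681) was at 4.94 and 5.23 TPM in WT against 4.35 and 4.38 TPM in A5-KO, and *METTL16* (ENSG00000127804, chr17:2405562-2511891) at 10.1 and 11.1 TPM in WT against 8.07 and 9.69 TPM in A5-KO. Their log2 differences were -0.18 and -0.23, with 95% intervals that include 0. *CBLL1* (ENSG00000105879, chr7:107743073-107761667), also called HAKAI and related to ubiquitin ligases, overlapped between the genotypes at 8.23 and 11.3 TPM in WT against 8.25 and 9.52 TPM in A5-KO.

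All 9 log2 differences in hILOs lay below 0, with a median of -0.18 against -0.06 for all genes tested. The genes listed in the tables summed to 92.3% and 92.5% of the full TPM scale in WT and to 88.7% and 89.7% in A5-KO. With median-of-ratios scaling the differences of *METTL3*, *METTL14* and *WTAP* lay above 0 (0.05, 0.04 and 0.05), and no member was called. Over all genes, 37.1% lay lower in both A5-KO libraries and 24.3% lay higher in both, so 5 of 9 below and 0 of 9 above is read against those shares.

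In PPs before transcription was blocked, again 0 of 9 members were called, against 2.70% of the 13911 genes tested, and edgeR and DESeq2 on the recovered reads also called 0. At an unadjusted limma p below 0.05 there was 1 member, against 1531 genes higher and 1153 lower in A5-KO of the 13911 tested. The 1 member was *METTL3*. It was at 52.9 and 48.8 CPM in WT against 60.9 and 58.0 CPM in A5-KO, so both A5-KO libraries lay above both WT libraries. The difference was 0.22 on the log2(CPM + 1) scale, a ratio of 1.17 (95% interval 0.01 to 0.43, limma adjusted p = 0.235). It was the only member of the 9 whose genotypes did not overlap at 0 h, where 29% of all genes lay higher in both A5-KO libraries.

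The other 8 members overlapped. *METTL14* was at 37.0 and 31.4 CPM in WT and 36.6 and 37.1 CPM in A5-KO. *WTAP* was at 78.9 and 68.2 CPM in WT and 87.6 and 72.0 CPM in A5-KO. *VIRMA* was at 77.8 and 71.5 CPM in WT and 84.9 and 66.5 CPM in A5-KO. Among these 3, the first replicate was the higher in both genotypes for *WTAP* and *VIRMA*. *ZC3H13* was at 73.0 and 71.7 CPM in WT and 82.7 and 63.3 CPM in A5-KO. *RBM15B* was at 161 and 137 CPM in WT and 157 and 153 CPM in A5-KO. *METTL16* was at 51.6 and 44.2 CPM in WT and 55.0 and 42.1 CPM in A5-KO. For these 3 the genotype means differed by less than the gap between the WT replicates. *RBM15* was at 38.2 and 28.2 CPM in WT and 34.3 and 26.7 CPM in A5-KO. *CBLL1* was at 26.0 and 20.1 CPM in WT and 28.7 and 22.5 CPM in A5-KO.

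The log2 differences of these 8 ranged from -0.11 for *RBM15* to 0.15 for *CBLL1*. The median of the 9 was 0.07, against 0.03 for all genes. For all 9 the 95% interval stayed within 1.5-fold in both directions. The widest intervals were those of *RBM15* (-0.48 to 0.25) and *CBLL1* (-0.21 to 0.50).

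**Figure D2:**
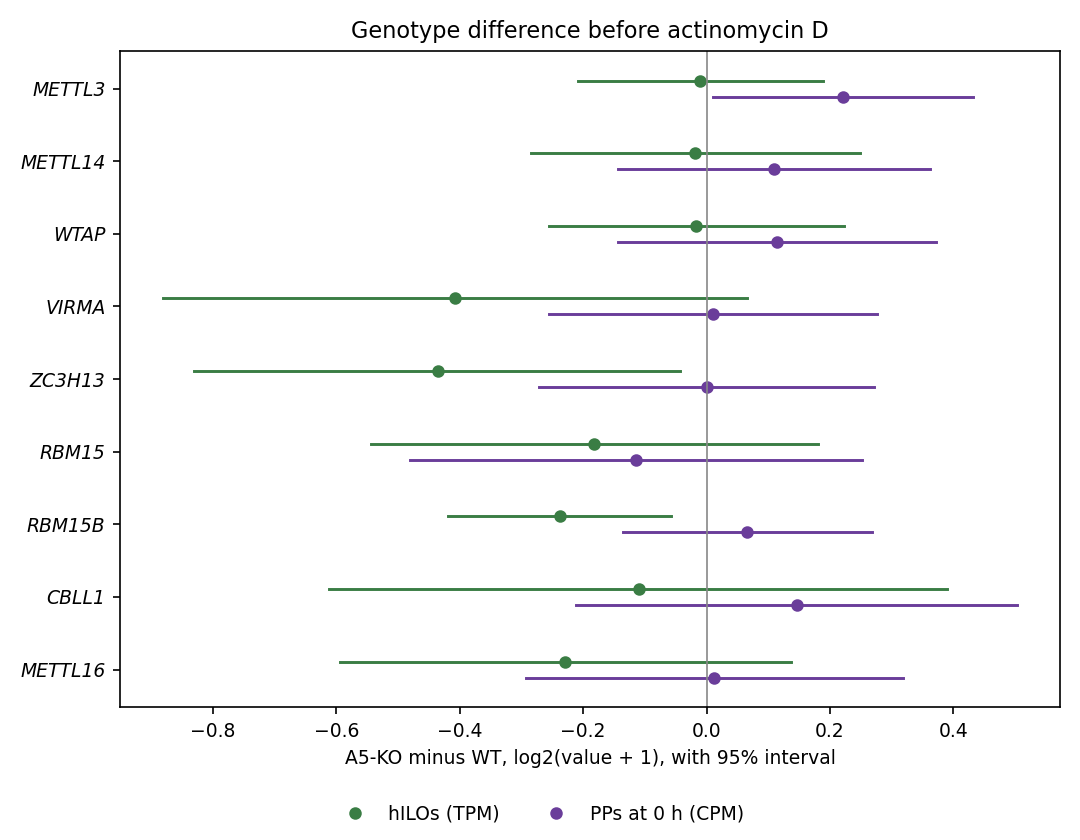
Difference between A5-KO and WT for the 9 writer mRNAs, on the log2(TPM + 1) scale for hILOs and the log2(CPM + 1) scale for PPs at 0 h, with limma's 95% interval (2 libraries per genotype). All points lie between -0.44 and 0.22, and *METTL3* in PPs lies at 0.22.

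Blocking transcription separated the members by how fast their mRNA was lost, and these values come from libraries that do not stand apart. In WT PPs, 5 of 9 members fell in the first hour, against 15.4% of the 13620 genes tested that fell. In A5-KO PPs, 7 of 9 fell, against 17.1% of genes. A fit without the 3 WT libraries that stand apart gave the same 5 and 7 members, with 2307 genes in WT and 2473 in A5-KO. Without the first WT library at 0 h the 5 members and 2100 genes that fell in WT became 3 and 1041, and without the first A5-KO library at 0 h the 7 and 2326 in A5-KO became 4 and 1205. The median log2 change of the 9, on the log2(CPM + 0.1) scale, was -0.70 in WT and -0.76 in A5-KO, against -0.13 and -0.15 over all genes. CPM holds each library's total fixed, so a change in CPM is a change relative to the average RNA.

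The fastest loss was that of *RBM15*, an RNA-binding adaptor. From 38.2 and 28.2 CPM in WT it came to 5.20 and 7.12 CPM at 1 h, and from 34.3 and 26.7 CPM in A5-KO to 6.44 and 4.00 CPM. Within 1 h, 18.6% of the WT level and 17.1% of the A5-KO level were left. *RBM15* fell by 2.41 in WT (limma adjusted p = 0.000153) and by 2.55 in A5-KO (limma adjusted p = 0.000108), and only 0.7% and 0.4% of all genes had a lower value.

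*CBLL1* was the next fastest. It was at 6.35 and 6.21 CPM in WT and at 6.82 and 6.31 CPM in A5-KO after 1 h, so that 27.2% and 25.6% of the 0 h level were left. The log2 change was -1.85 in WT (95% interval -2.38 to -1.31) and -1.94 in A5-KO (95% interval -2.47 to -1.40). Neither genotype overlapped its own 0 h libraries, and the genotypes overlapped each other at 1 h.

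*WTAP*, *RBM15B* and *METTL16* also fell in both genotypes. *WTAP* came to 41.4 and 42.3 CPM in WT and 42.4 and 47.6 CPM in A5-KO, with 56.9% and 56.3% left. *RBM15B* came to 73.8 and 81.8 CPM in WT and 92.8 and 90.7 CPM in A5-KO, with 52.3% and 59.0% left. *METTL16* came to 25.8 and 33.3 CPM in WT and 34.2 and 29.9 CPM in A5-KO, with 61.7% and 65.9% left. *METTL16* lay at the limit, with a 1.63-fold change in WT and 1.5-fold in A5-KO, and its call was lost in both genotypes with median-of-ratios scaling. It was also lost without the first WT replicate at 0 h or at 1 h, and without the first A5-KO replicate at 0 h or either A5-KO replicate at 1 h; the log2 change then ranged from -0.89 to -0.52 in WT and from -0.78 to -0.40 in A5-KO over all libraries left out. The call of *RBM15B* was lost without the first WT replicate at 0 h (adjusted p at most 0.0526), and without the first A5-KO replicate at 0 h or the second at 1 h (adjusted p at most 0.0694).

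*METTL14* and *VIRMA* were called in A5-KO and not in WT in the first hour. *METTL14* came to 23.1 and 24.5 CPM in WT and 21.6 and 20.5 CPM in A5-KO, with log2 changes of -0.52 and -0.81. *VIRMA* came to 55.1 and 54.5 CPM in WT and 48.8 and 43.2 CPM in A5-KO, with log2 changes of -0.44 and -0.71. In WT both had an adjusted p below 0.05 (0.0146 and 0.0253) and a change under 1.5-fold. The *VIRMA* call in A5-KO was lost without the first A5-KO replicate at 0 h (log2 change -0.54) and with median-of-ratios scaling (-0.55). *ZC3H13*, at 57.8 and 55.6 CPM in WT and 51.7 and 47.8 CPM in A5-KO, stayed under 1.5-fold in both genotypes.

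*METTL3* was the most stable member. It was at 51.8 and 55.4 CPM in WT and 53.2 and 48.1 CPM in A5-KO after 1 h, so that 105% and 85.1% of the 0 h level were left. It passed the test in neither genotype, and 73.6% of all genes in WT and 43.1% in A5-KO had a lower log2 change.

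**Figure D3:**
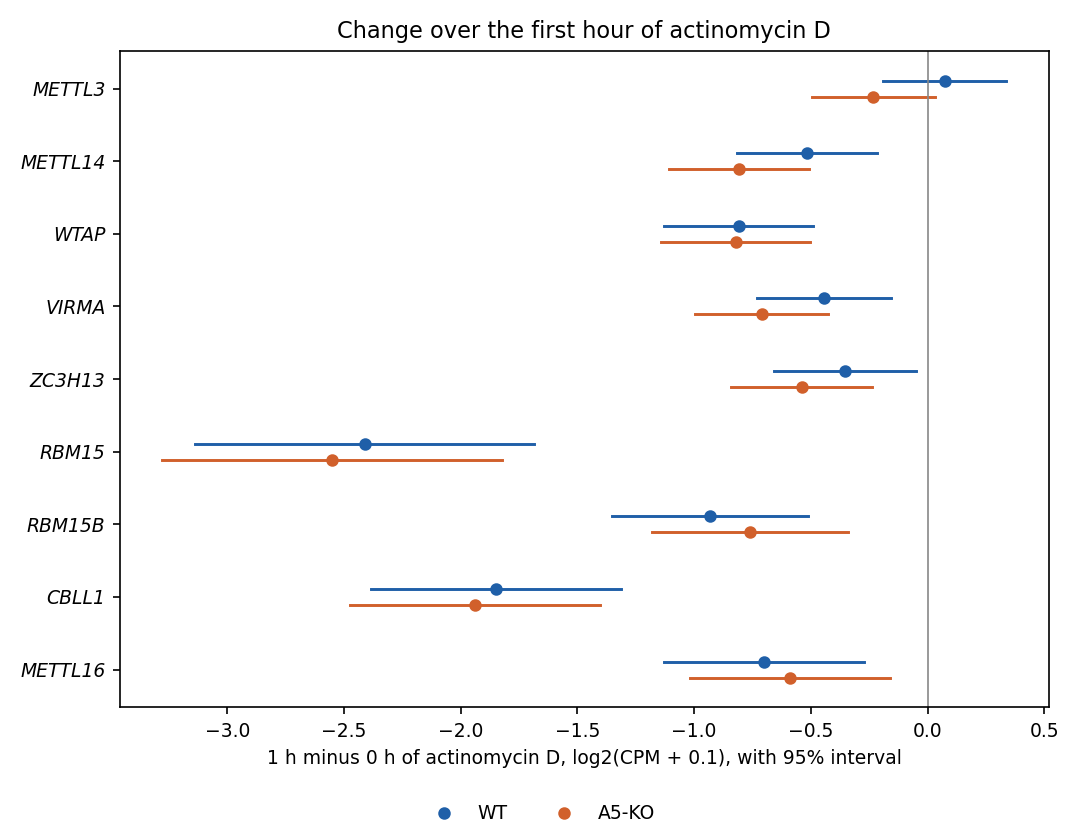
Log2(CPM + 0.1) at 1 h minus 0 h of actinomycin D for the 9 writer mRNAs in WT and A5-KO PPs, with limma's 95% interval (2 libraries per genotype and time). *RBM15* (-2.41 and -2.55) and *CBLL1* (-1.85 and -1.94) lie farthest below 0, and *METTL3* lies at 0.07 and -0.23.

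The difference between the genotypes in this first hour was tested directly, as the slope from 0 to 1 h in A5-KO minus that in WT. None of the 9 passed in limma, and 1 (*METTL3*) had an unadjusted p below 0.05. Of the 13620 genes tested, 51 were called with a higher slope in A5-KO and 3 with a lower one. At an unadjusted limma p below 0.05 these counts were 897 and 564. The log2 differences of the 9 ranged from -0.31 for *METTL3* (95% interval -0.61 to -0.01, limma adjusted p = 0.453) to 0.17 for *RBM15B* (95% interval -0.11 to 0.45). Those of *METTL14* and *VIRMA*, called in A5-KO alone, were -0.29 (95% interval -0.64 to 0.07) and -0.27 (95% interval -0.62 to 0.08). At 1 h itself, the level of 0 of 9 members was called between the genotypes in limma, against 4.29% of genes called in either direction. At an unadjusted limma p below 0.05 there were 0 members, against 1773 genes higher and 1342 lower in A5-KO. At that time 3 members (*METTL14*, *VIRMA* and *ZC3H13*) lay lower in both A5-KO libraries and 2 (*WTAP* and *RBM15B*) higher in both, against 23.3% and 32.6% of all genes. The log2 differences at 1 h ranged from -0.26 for *RBM15* and *VIRMA* to 0.24 for *RBM15B*.

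At 2 h, 0 of 9 members were called between the genotypes, against 7.55% of all genes in either direction. At an unadjusted limma p below 0.05 there were 3 (*VIRMA*, *ZC3H13* and *RBM15B*). Of the 13620 genes tested, 1282 had such a p with a higher level in A5-KO and 2923 with a lower one. *VIRMA* had an adjusted p of 0.039 in limma with a 1.37-fold lower level in A5-KO, which is under the fold limit. It was at 45.7 and 61.0 CPM in WT and 38.6 and 38.6 CPM in A5-KO. The second WT value is from a library that stands apart, and with WT replicate 1 alone the log2 difference of *VIRMA* was -0.24 (95% interval -0.51 to 0.03) in place of -0.45. *RBM15B* had the widest gap between its WT replicates, at 61.1 and 118 CPM, against 63.5 and 62.1 CPM in A5-KO. In that member the first WT replicate lay beside the A5-KO values, and the log2 difference moved from -0.43 to 0.04 without the second.

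All 9 members came closer between the genotypes, or passed to the other side of 0 by at most 0.04, once the second WT replicate at 2 h was left out, except *METTL14*. *METTL14* was at 18.2 and 17.9 CPM in WT and 16.6 and 17.1 CPM in A5-KO, and its log2 difference was -0.10 with both and -0.11 with the first alone. The median over the 9 was -0.31 with both WT replicates and -0.10 with the first alone, against -0.12 and -0.04 over all genes. *WTAP* was at 29.6 and 41.1 CPM in WT and 28.2 and 27.9 CPM in A5-KO at this time. *ZC3H13* was at 42.6 and 60.1 CPM in WT and 40.0 and 41.4 CPM in A5-KO. *METTL3* was at 44.9 and 52.1 CPM in WT and 39.2 and 43.9 CPM in A5-KO. In each of these 3, the second WT library was the highest of the 4. The lowest levels were those of *RBM15*, at 3.79 and 6.18 CPM in WT and 3.39 and 2.75 CPM in A5-KO, and of *CBLL1*, at 4.46 and 7.81 CPM in WT and 4.70 and 3.70 CPM in A5-KO. *METTL16* was at 19.3 and 28.5 CPM in WT and 17.1 and 22.2 CPM in A5-KO.

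Over 3 h in A5-KO PPs, 8 of 9 members fell, against 32.0% of all genes, and the exception was *METTL3*. The same 8 were called without the 3 WT libraries and in each of 16 fits with 1 library left out. *RBM15* had the largest change, from 34.3 and 26.7 CPM to 4.57 and 2.69 CPM, and fell by 3.07 (limma adjusted p = 1.83e-06). *CBLL1* fell by 2.64, to 4.63 and 3.45 CPM. *WTAP* fell by 1.96, to 21.4 and 19.4 CPM, with 25.5% of its 0 h level left.

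The others followed in the order *RBM15B*, *METTL16*, *VIRMA*, *METTL14* and *ZC3H13*. *RBM15B* came to 48.0 and 41.0 CPM (28.6% left), *METTL16* to 17.2 and 12.8 CPM (30.9% left), and *VIRMA* to 26.4 and 25.9 CPM (34.6% left). *METTL14* came to 13.6 and 13.7 CPM (37.0% left) and *ZC3H13* to 34.5 and 30.4 CPM (44.5% left). None of these 8 overlapped its own 0 h values, though the share of all genes without such an overlap was not computed. *METTL3* was at 47.8 and 49.1 CPM (81.5% left), below both 0 h libraries, with a log2 change of -0.30 (95% interval -0.56 to -0.03, limma adjusted p = 0.0578). The median of the 9 was -1.69, against -0.25 over all genes, and median-of-ratios scaling moved the latter to 0.04 and the calls over all genes from 345 higher and 4358 lower to 1752 higher and 3192 lower.

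Half-lives were taken from a line through the origin over 1, 2 and 3 h in each A5-KO replicate, relative to the average RNA. They were 0.794 and 0.738 h for *RBM15*, 0.930 and 0.935 h for *CBLL1*, and 1.35 and 1.56 h for *WTAP*. *RBM15B* had 1.64 and 1.55 h, *METTL16* 1.54 and 1.88 h, *METTL14* 1.92 and 1.90 h, and *VIRMA* 1.73 and 2.24 h. The longest were those of *ZC3H13*, at 2.14 and 2.92 h, and of *METTL3*, at 5.58 and 7.79 h. *ZC3H13* overlapped *VIRMA*, and *METTL3* overlapped no other member. *RBM15* and *CBLL1* overlapped with no other member either, and the 5 members from *WTAP* to *VIRMA* formed a range in which neighbours overlapped, except *METTL16* and *METTL14*. Over the first hour alone *RBM15* had 0.418 and 0.369 h in A5-KO and *CBLL1* 0.485 and 0.55 h. The loss of these mRNAs slowed after the first hour, so their half-lives over 1, 2 and 3 h understate how fast it began.

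Over the first hour alone, both WT replicates are free of the libraries that stand apart. Each 1 h library was set against the 0 h library of the same number, which does not pair them, and there is no test. *METTL14* then had 1.48 and 2.78 h in WT against 1.31 and 1.17 h in A5-KO, *VIRMA* 2.01 and 2.55 h against 1.25 and 1.61 h, and *ZC3H13* 2.96 and 2.72 h against 1.48 and 2.47 h. These were longer in both WT replicates. *METTL3* had 30.8 h and no fall in WT against 5.12 and 3.69 h in A5-KO. The other 5 members overlapped between the genotypes. Beyond the first hour such a WT value exists only for replicate 1, over 1 and 2 h. It was 0.529 h for *RBM15*, 0.709 h for *CBLL1*, 1.85 h for *METTL14* and 9.84 h for *METTL3*. The A5-KO replicates over the same times gave 0.556 and 0.545 h, 0.691 and 0.719 h, 1.65 and 1.63 h, and 3.42 and 4.66 h, in that order. *WTAP* had 1.33 h in this WT replicate against 1.16 and 1.5 h in A5-KO. *VIRMA* had 2.46 h in WT against 1.63 and 2.28 h in A5-KO, and *ZC3H13* 2.64 h in WT against 1.80 and 3.07 h in A5-KO. *RBM15B* had 1.28 h in this WT replicate against 1.48 and 1.49 h, and for *METTL16* 1.31 h lay between 1.24 and 2.14 h. The WT value is from 1 replicate and has no test.

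**Figure D4:**
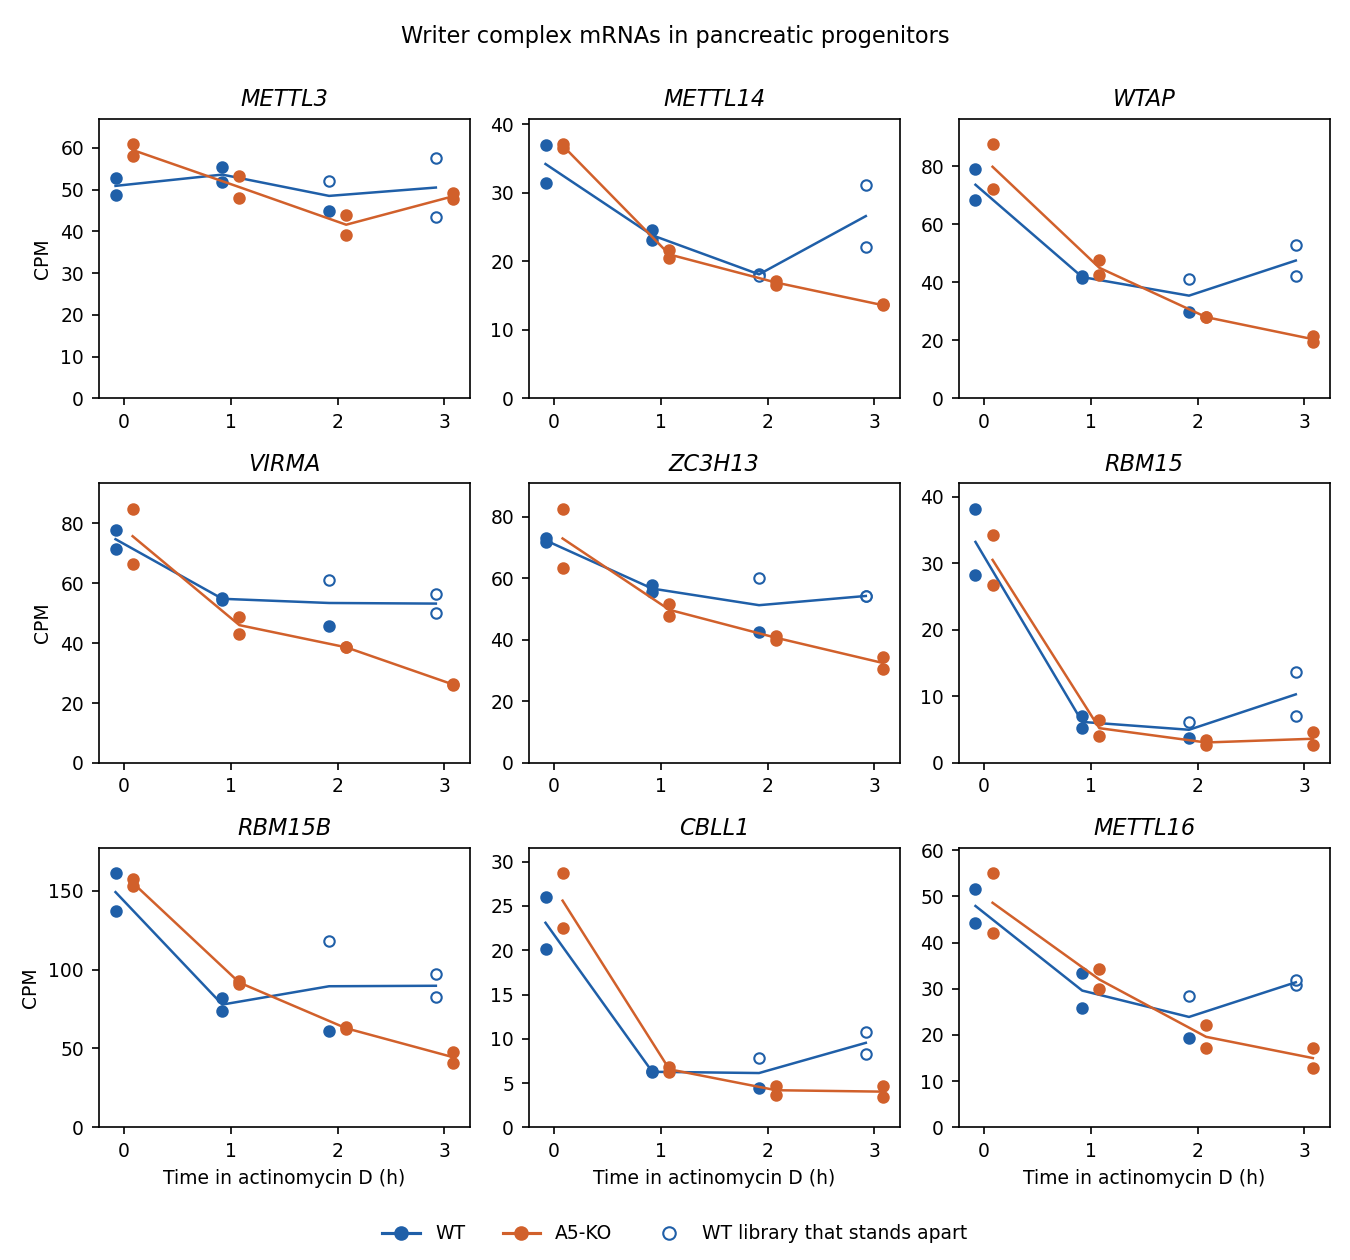
CPM of the 9 writer mRNAs in the 16 PP libraries against time in actinomycin D, with points for libraries and lines through the means of 2. Open circles are the 3 WT libraries that stand apart. At 3 h, 8 members lie lower in both A5-KO libraries, against 46.0% of all genes. There *WTAP* is at 42.3 and 52.7 CPM in the libraries labelled WT and 21.4 and 19.4 CPM in A5-KO, and *METTL3* overlaps.

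At 3 h, 8 of 9 members were lower in A5-KO than in the libraries labelled WT, all but *METTL3*, against 19.1% of all genes lower and 1.23% higher. Every WT value in this comparison is from a library that stands apart, so it cannot be given without them. *RBM15* was at 6.98 and 13.6 CPM in the libraries labelled WT against 4.57 and 2.69 CPM in A5-KO, a log2 difference of -1.45 (95% interval -2.18 to -0.72, limma adjusted p = 0.00431). Its call was lost without the second library of either genotype at 3 h, with an adjusted p of at most 0.0803. *CBLL1* was at 8.29 and 10.8 CPM against 4.63 and 3.45 CPM, a log2 difference of -1.22. *WTAP* differed by -1.21.

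*METTL16*, at 30.9 and 31.8 CPM against 17.2 and 12.8 CPM, differed by -1.07. *VIRMA*, at 56.3 and 50.2 CPM against 26.4 and 25.9 CPM, differed by -1.02, and *RBM15B*, at 97.0 and 82.5 CPM against 48.0 and 41.0 CPM, by -1.01. *METTL14*, at 22.1 and 31.1 CPM against 13.6 and 13.7 CPM, differed by -0.94. These groups did not overlap, at a time when 46.0% of all genes lay lower in both A5-KO libraries and 19.9% higher in both. The smallest of the 8 differences was that of *ZC3H13*, at 54.2 and 54.4 CPM against 34.5 and 30.4 CPM, with -0.74 (95% interval -1.05 to -0.44). *METTL3* was at 43.4 and 57.5 CPM against 47.8 and 49.1 CPM, a log2 difference of -0.04 (95% interval -0.31 to 0.22) that turned to 0.09 with median-of-ratios scaling.

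In the libraries labelled WT, 4 of 9 members were called lower at 3 h than at 0 h (*CBLL1*, *RBM15*, *RBM15B* and *WTAP*), against 9.37% of all genes. Without the first WT library at 0 h or the first at 3 h, 0 of 9 were called, and the count over all genes came to 70 without the former. In these libraries 8 of 9 members had a higher mean at 3 h than at 2 h, and *VIRMA* came to 53.4 CPM after 2 h and 53.2 CPM after 3 h. The median log2 change of the 9 was 0.42 against 0.06 over all genes, while the median in A5-KO was -0.33 against -0.04. *METTL14* had a mean of 18.1 CPM at 2 h and 26.6 CPM at 3 h in WT, and of 16.9 and 13.6 CPM in A5-KO. *RBM15* had 15.0% of its WT 0 h level left at 2 h and 31.0% at 3 h. No member was called between 2 and 3 h in either genotype. Of the 13620 genes tested, 141 were called higher and 14 lower at 3 h in WT, and 89 and 355 in A5-KO. At an unadjusted limma p below 0.05 there were 4 members in WT and 5 in A5-KO. The genes with such a p were 1999 higher and 727 lower in WT, and 941 and 1923 in A5-KO. *VIRMA* in A5-KO had an adjusted p of 0.0287 in limma with a change of 1.47-fold.

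The slope over all 4 times was compared between the genotypes as an interaction in limma, with an adjusted p below 0.05 as the call and no fold limit. With all 16 libraries, 1 of 9 members was called steeper in A5-KO, against 2.61% of all genes. It was *VIRMA*, with a difference of -0.33 log2 units per h (95% interval -0.49 to -0.17, limma adjusted p = 0.0409). The next were *WTAP* at -0.44 (adjusted p = 0.0548), *ZC3H13* at -0.24 (adjusted p = 0.0817) and *RBM15B* at -0.39 (adjusted p = 0.0826). All 9 differences were below 0, with a median of -0.37 against -0.07 over all genes.

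Without the 3 WT libraries, 0 of 9 members and 0 of all genes were called, no member had an unadjusted p below 0.05, and 6 of 9 differences were above 0. In limma, 283 genes then had an unadjusted p below 0.05 with a shallower slope and 200 with a steeper one. *VIRMA* came to -0.11 (95% interval -0.30 to 0.08), *WTAP* to 0.02 (95% interval -0.18 to 0.22) and *ZC3H13* to 0.00 (95% interval -0.17 to 0.18). *METTL14*, at -0.31 with all libraries, came to -0.001 (95% interval -0.22 to 0.21). *RBM15* came to 0.67 (95% interval -0.22 to 1.57) and *CBLL1* to 0.41 (95% interval -0.23 to 1.04), both from below 0. In this fit the WT slope spans 0 to 2 h and the A5-KO slope 0 to 3 h, and both of these mRNAs lost most of their level in the first hour. The *VIRMA* call was also lost in 13 of the 16 fits that left out 1 library, where its difference ranged from -0.37 to -0.27 and its adjusted p from 0.00885 to 0.148. It was kept without the first WT library at 0 h, the first WT library at 2 h or the second A5-KO library at 1 h.

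**Figure D5:**
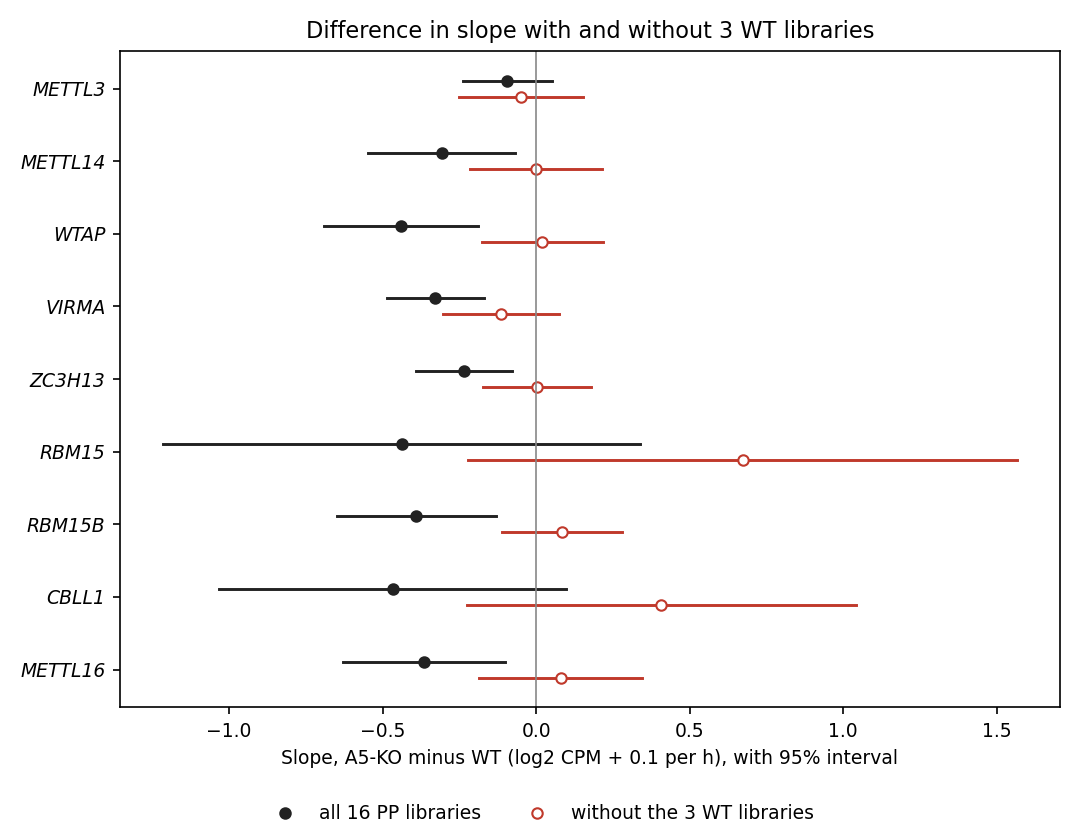
Slope in A5-KO PPs minus slope in WT PPs for the 9 writer mRNAs, in log2(CPM + 0.1) per h with limma's 95% interval, with all 16 PP libraries and without the 3 WT libraries that stand apart. With all libraries the points lie between -0.47 and -0.095; without the 3 libraries they lie between -0.11 and 0.67, and every interval includes 0.

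Another 21 genes of m6A and RNA methylation (erasers, readers, other RNA methyltransferases and the supply of the methyl donor) were followed beside the writers. In hILOs 2 of the 21 were called, against 6.79% of all genes, both lower in A5-KO: *ALKBH5* itself and the reader *IGF2BP3*, which binds and stabilises marked mRNAs. *IGF2BP3* was at 26.0 and 31.0 TPM in WT against 17.7 and 19.1 TPM in A5-KO, a log2 difference of -0.60 (limma adjusted p = 0.0457). In PPs at 0 h and at 1 h, *ALKBH5* was the only one called. *MAT2A*, which makes the methyl donor and whose mRNA METTL16 binds, was at 208 and 187 CPM in WT and 226 and 193 CPM in A5-KO PPs at 0 h, and the genotypes overlapped.

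In the first hour after the block of transcription 5 of the 21 genes fell in WT and 6 in A5-KO, against 15.4% and 17.1% of all genes, and *YTHDF1*, *YTHDF2*, *YTHDF3* and *MAT2A* were called in both. *YTHDF2*, which recruits decay factors to marked mRNAs, went from 152 and 130 CPM to 48.4 and 50.3 CPM in WT and from 165 and 136 CPM to 55.4 and 60.7 CPM in A5-KO. It fell by 1.51 in WT and by 1.37 in A5-KO. *MAT2A* fell by 1.24 and 1.12. At 3 h, 7 of the 21 were lower in A5-KO than in the libraries labelled WT, all of which stand apart, against 19.1% of all genes. The largest difference after *ALKBH5* was that of *YTHDF2* (-1.88). No gene of the 21 was called in the slope, with or without the 3 WT libraries.

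The genes whose PP profile lay closest to that of 3 writers were found over all 16 PP libraries among 8919 others with a mean of at least 10 CPM, by the root mean square (RMS) difference of log2(CPM + 0.1) from each gene's WT 0 h mean. The measure is a description, and the points share their libraries. *METTL3* was closest to *SNN*, *PPID* and *DDX46* (RMS difference 0.10 for each). *METTL14* was closest to *BLZF1*, *G2E3* and *RIOK1* (0.09 for each), and *WTAP* to *KIF23*, *USP1* and *CDK17* (0.09, 0.10 and 0.10). *METTL16* came in 57th place for *WTAP* (0.17) and *RBM15B* in 97th place (0.19). *METTL14* and *METTL3*, which form a protein pair, had an RMS difference of 0.69, which put *METTL14* in 7635th place of the 8919 from *METTL3* and *METTL3* in 4296th place from *METTL14*. Over the 13 libraries without the 3 that stand apart the difference was 0.70, with *METTL14* in 7584th and *METTL3* in 4296th place. There *METTL3* was closest to *PTCD3*, *GRB10* and *MTFMT*, *METTL14* to *BAZ1B*, *RIOK1* and *G2E3*, and *WTAP* to *KIF23*, *USP1* and *ARL14EP*, and *RBM15B* came in 11th and *METTL16* in 81st place for *WTAP*.

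Transcript features of the members were read from the GENCODE annotation of GRCh38. The canonical transcript of *METTL3* is 1980 bases long with a 3′ UTR of 120 bases, which puts its 3′ UTR at the 4.2 percentile of 12228 protein-coding genes tested in PPs. *METTL14* has 6642 bases and a 3′ UTR of 5128 bases, at the 92 percentile. The consensus GGACT of m6A sites, searched on the sense strand alone, occurred in the transcripts of all 9 members and in 91.8% of all transcripts. Its density was 2.02 per kb in *METTL3*, 1.90 in *WTAP*, 1.54 in *VIRMA* and 1.204 in *METTL14*, against a median of 0.92 over all. *ZC3H13* (1.00), *RBM15B* (0.91) and *RBM15* (0.89) lay near that median. The lowest densities were those of *METTL16* (0.52) and *CBLL1* (0.50). Of the 9 members, 5 lay above the median, and a relation of this density to the loss of mRNA was not tested. A match is a sequence of letters and not a measured site.

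Of the 9 members, 6 share exon sequence with a gene on the opposite strand, and whether the counting used strand is not given in the sources used here. *RBM15B* shares 1325 of its 6624 exon bases with *DCAF1*, and *CBLL1* shares 442 of 5457 with *CBLL1-AS1*. The shared stretch was 437 of 6413 bases for *WTAP* with *SOD2*, 388 of 5861 for *METTL3* with *TOX4*, 263 of 10265 for *ZC3H13* with *CPB2-AS1* and 175 of 4670 for *RBM15* with *RBM15-AS1*. No such overlap was found for *METTL14*, *VIRMA* or *METTL16*. Reads in these stretches cannot be assigned to 1 of the genes without strand.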

How the data were processed

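RNA-seq of 4 hILO and 16 PP libraries was analysed from the deposited tables. The authors trimmed reads with fastp, aligned them to hg38 with HISAT2 (2.1.0), and deposited TPM per gene for hILOs, quantified with StringTie; for PPs the authors deposited CPM per gene after removing ERCC spike-ins. The annotation release and the counter behind the CPM are not given in the sources used here, and no conversion by spike-ins was made. No column of per-sample values was left unused. Identifiers were matched to symbols for 60370 of 60624 (hILOs) and 60369 of 60623 (PPs). All CPM values (100%, within 0.1 reads) were whole multiples of the value of 1 read in their library, which gave the reads per library. Since TPM hides the depth, hILO values carry no counting error here, and the 2 libraries per group limit the precision.

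Genotypes were compared with limma (3.58.1, R 4.3.3) in fits of 4 libraries, on the log2(TPM + 1) scale for hILOs and the log2(CPM + 1) scale for PPs at 0 h. The time course was fitted on log2(CPM + 0.1) over 16 libraries, with 8 group means or a slope per genotype. Genes with a mean of at least 1 were tested, and p-values were Benjamini-Hochberg adjusted over all of them. A pseudocount understates the change of low genes. The comparisons at 1 h and 2 h, and the fits and the likeness without the 3 WT libraries, were added after the data were seen. edgeR (4.0.16) and DESeq2 (1.42.0) on recovered reads were alternatives, beside other pseudocounts, filters, scalings, a replicate block and each library left out in turn. All 9 members are named, *ALKBH5* and *FTO* as erasers, and of the other list genes that were called at most 5 per comparison by size; *MAT2A* is named beside METTL16, chosen after its values were seen. The members and lists were chosen with earlier results of these data known. The code was tested on simulated data.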

Additional observations from a re-analysis of the deposited data

Results flagged for a closer look

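The slope of *VIRMA* over 0 to 3 h of actinomycin D differed between the genotypes by the interaction test, with -0.33 log2 units per h in A5-KO minus WT (limma adjusted p = 0.0409). Without the 3 WT libraries that stand apart the difference was -0.11 and was not called, and over 0 and 1 h alone it was -0.27 (limma adjusted p = 0.574).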

How the results depend on the processing

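No member was called between the genotypes in hILOs or in PPs at 0 h under any alternative run, at 1 h with median-of-ratios scaling, without the 3 WT libraries or with each library left out, or at 2 h with that scaling or without the 3 WT libraries. The 8 members called lower in A5-KO at 3 h against 0 h were called under all of them. Median-of-ratios scaling moved the median of all genes from -0.25 to 0.04 for that comparison. The log2 differences near 0 changed sign with the scaling. In hILOs *METTL3*, *METTL14* and *WTAP* came to 0.053, 0.041 and 0.047 under median-of-ratios scaling and, after quantile normalization, to 0.031, 0.054 and 0.011. In PPs at 0 h *METTL16* and *VIRMA* came to -0.03 and -0.032 under median-of-ratios scaling, -0.009 and -0.01 after quantile normalization, -0.018 and -0.019 in edgeR, and -0.017 and -0.018 in DESeq2. *METTL3* came to 0.092 and 0.085 between the genotypes at 3 h with median-of-ratios scaling and in edgeR, and to 0.074 and 0.079 at 3 h against 0 h in WT. *WTAP* was no longer called there (-0.535 and -0.539). At 2 h without the 3 WT libraries *METTL16* came to 0.014 and *RBM15B* to 0.038.

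The slope depended most on the libraries used. The 1 member called became 2 with a mean of at least 10 CPM, 8 with 0 and 3 h only, and 0 with median-of-ratios scaling, with 0 and 1 h only, without the 2 WT libraries at 3 h or without all 3. With 0 and 1 h only *METTL16* came to 0.112 and *RBM15B* to 0.172. Without the 2 WT libraries *CBLL1* came to 0.112 and *RBM15* to 0.375, and without the 3 *CBLL1*, *ZC3H13*, *METTL16*, *WTAP*, *RBM15* and *RBM15B* came to 0.408, 0.002, 0.08, 0.02, 0.672 and 0.084. With the replicate block the slope had 0 members called (*VIRMA* adjusted p = 0.0572 in limma), and no other member count changed. Deviations of equally numbered libraries correlated at -0.003 in hILOs and at 0.189, -0.001, -0.057 and -0.019 in PPs, so the numbers were not taken to pair the samples.

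With 1 library left out, where that leaves 1 in a group its spread is assumed to be that of the others. The members called in the slope ranged from 0 to 6 (6 without the first WT library at 0 h), at 3 h against 0 h in WT from 0 to 5, and in the first hour from 3 to 6 in WT and 4 to 8 in A5-KO. The genes that fell in the first hour then ranged from 1041 to 2240 in WT and from 1205 to 2444 in A5-KO. In hILOs *METTL3* ranged from -0.065 to 0.045, *METTL14* from -0.064 to 0.027, *WTAP* from -0.124 to 0.09 and *CBLL1* from -0.317 to 0.096. In PPs at 0 h *CBLL1* ranged from -0.033 to 0.324, *ZC3H13* from -0.191 to 0.19, *METTL16* from -0.176 to 0.201, *METTL14* from -0.006 to 0.223, *WTAP* from -0.026 to 0.253, *RBM15* from -0.325 to 0.097, *VIRMA* from -0.163 to 0.184 and *RBM15B* from -0.048 to 0.181. *METTL3* ranged from -0.248 to 0.159 between the genotypes at 3 h and from -0.229 to 0.178 at 3 h against 0 h in WT. At 1 h *METTL16* ranged from -0.059 to 0.307 and *RBM15* from -0.593 to 0.08.

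Counts over all genes moved further. In hILOs 1174 became 330 with no filter, 731 with a mean of at least 10, 674 with the replicate block and 189 to 288 with 1 library left out. In PPs at 0 h 375 became 164, 194 and 631 in the same order. At 3 h, 2605 lower became 1700 with a mean of at least 10, and 168 higher became 81 there, 386 with median-of-ratios scaling and 396 in edgeR. In A5-KO at 3 h against 0 h, 4358 lower became 2712 with a mean of at least 10. The 355 steeper slopes became 165 with a pseudocount of 1, 105 with median-of-ratios scaling, 2737 with 0 and 3 h only, 3 with 0 and 1 h only, 0 with the replicate block and 0 to 1442 with 1 library left out. The first-hour calls in A5-KO were 186 higher and 2326 lower, and 608 and 1641 with median-of-ratios scaling. Between the genotypes at 2 h, 367 higher and 661 lower became 496 and 462 with that scaling, and 1028 in either direction became 528 without the 3 WT libraries. The cause of these changes was not tested.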
